A study of Homo sapiens with 2 samples.

Results

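Phosphatidylinositol signaling enzymes were described among the transcripts listed as bound by ALKBH5, a demethylase of the RNA mark N6-methyladenosine (m6A), in HL-60 cells. The members are the symbols entered under the KEGG pathway Phosphatidylinositol signaling system, without those also entered under the KEGG pathways Autophagy - animal or Endocytosis. The pathway had 57 entries, of which 12 were left out (10 for autophagy and 2 for endocytosis). These 12 stood on 10 distinct gene identifiers, because AC007192.4 was entered under that of PIK3R2 and RP3-394A18.1 under that of MTMR3. The remaining 45 symbols are the members, out of 5851 symbols named in the 3 deposited tables. They stood on 43 distinct gene identifiers. The members were thus chosen by the authors' own listing of genes with peaks, so their listing and their shares of KEGG pathways are a description with no test.

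HL-60 is an established human promyelocytic leukaemia line, and both libraries came from these cells with no treatment given in the labels and the label ALKBH5 in the genotype field. The immunoprecipitate (IP) library came from the 80% of the lysate that was taken with an antibody against ALKBH5, and the input library from 10% of the lysate; a further 10% went to a rabbit IgG control, from which no library was analysed here. There was 1 library per group, and each title names the opposite group to its library name; the groups follow the library names. The tables hold gene lists and no level, peak height or read depth for either library, so no difference between IP and input, no replicate error and no expression level of a member could be given.

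Phosphatidylinositol is a membrane lipid whose inositol ring is phosphorylated by lipid kinases and dephosphorylated by phosphatases, and each phosphorylated form recruits its own set of proteins to a membrane. Phospholipase C cleaves one of these forms into diacylglycerol, which stays in the membrane, and a soluble inositol phosphate, which opens calcium channels of the endoplasmic reticulum. Diacylglycerol kinases end the lipid signal by making phosphatidic acid, and inositol phosphate kinases and phosphatases convert the soluble part. In neutrophils and their precursors this system carries signals from chemokine and Fc receptors to migration, phagocytosis and the oxidative burst.

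In the authors' deposited table the pathway had 57 entries on 99 background genes, a rich factor of 1.73, a p-value of 0.00837 and a corrected p-value of 0.218. The corrected value did not reach 0.05. Counted once each, 53 gene identifiers were entered, 53.5% of the 99 background genes (exact Clopper-Pearson 95% interval 43.2 to 63.6%, counting error only). The members fell into 11 phosphatases, 8 phospholipase C entries, 8 inositol phosphate enzymes, 7 lipid kinases and 6 diacylglycerol kinases. The other 5 were calcium channel and calmodulin entries of the same pathway.

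Against a hand-written list of 106 pathway genes, 56 were listed in any table (52.8%, 95% interval 42.9 to 62.6%), while 26.9% of all 20056 protein-coding genes of the reference were. The pathway was taken because the authors listed it, so this gap follows from the choice and supports nothing. By class the shares were as follows. Lipid kinases, a class that here includes the regulatory subunits PIK3R1, PIK3R2, PIK3R3 and PIK3R5, were listed in 15 of 24 cases (62.5%). Diacylglycerol kinases were listed in 6 of 10 (60%) and phosphatases in 14 of 26 (53.8%). Phospholipase C genes were listed in 7 of 13 (53.8%) and inositol phosphate enzymes in 9 of 17 (52.9%). The remaining pathway genes were listed in 5 of 16 cases (31.2%, 95% interval 11.0 to 58.7%).

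**Figure D1:**
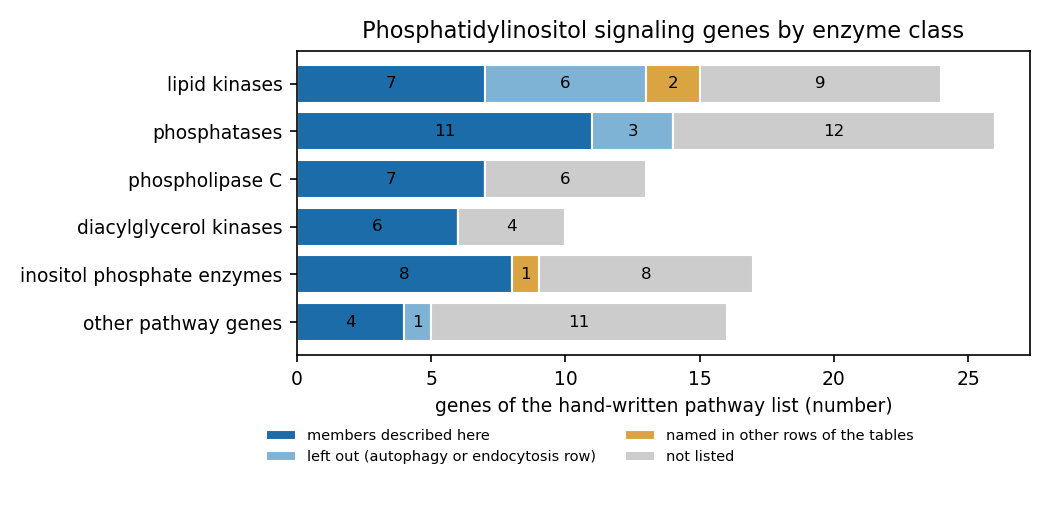
Number of genes of the hand-written pathway list (horizontal axis) in each enzyme class (vertical axis), split into members, genes left out for their autophagy or endocytosis entry, genes named in other rows of the tables, and genes not listed. Phospholipase C and the diacylglycerol kinases had no gene left out by the rule, whereas 6 lipid kinases and 3 phosphatases were left out; PLCG1-AS1 and RP11-315D16.2 are members that the list does not hold.

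A total of 3 members carried a gene identifier that the reference gives to another gene; over all entries of the GO and KEGG tables this held for 8.04%. PLCG1-AS1, a long noncoding RNA, was entered under the identifier of PLCG1. RP11-315D16.2 was entered under that of CALML4, and it has no match in the reference. The pathway and GO terms of these 3 entries are therefore those of the gene whose identifier they carry.

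PLCG1 and PLCG1-AS1 illustrate the shared identifier. PLCG1 lies on chromosome 20 from 41137543 to 41177626 and PLCG1-AS1 on the opposite strand from 41097994 to 41138000 (GRCh38.p14). They start head to head and share 458 bases, and PLCG1-AS1 runs across the whole promoter window of PLCG1 and on into TOP1. The kit was stranded per the labels' protocols, but no source used here gives the strand setting of the counting, so reads of the shared stretch cannot be assigned to either gene. PLCG1 was also in the RNA-binding family table and PLCG1-AS1 was not. Both promoter windows are shown because the pair shares its identifier and its start region; DGKA and DGKD are shown as the first diacylglycerol kinases in alphabetical order, the class named most often in the family table below. Each window runs 5′ to 3′ on the strand of its gene, from 250 bases before to 50 bases after the outermost annotated start (RefSeq, GRCh38.p14), and capitals mark GC boxes (GGGCGG, or CCGCCC for the other strand). PLCG1, PLCG1-AS1 and the classes shown were picked by hand, PLCG1-AS1 after its values were seen. The windows are chr20:41137293-41137592 (+ strand) for PLCG1, chr20:41137951-41138250 (- strand) for PLCG1-AS1, chr12:55927066-55927365 (+ strand) for DGKA and chr2:233354244-233354543 (+ strand) for DGKD.
PLCG1: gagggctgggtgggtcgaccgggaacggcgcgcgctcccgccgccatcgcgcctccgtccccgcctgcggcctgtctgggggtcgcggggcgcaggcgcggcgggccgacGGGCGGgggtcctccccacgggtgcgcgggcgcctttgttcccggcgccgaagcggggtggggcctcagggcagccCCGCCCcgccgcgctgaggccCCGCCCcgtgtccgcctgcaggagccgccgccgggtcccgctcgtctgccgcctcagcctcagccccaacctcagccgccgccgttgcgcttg
PLCG1-AS1: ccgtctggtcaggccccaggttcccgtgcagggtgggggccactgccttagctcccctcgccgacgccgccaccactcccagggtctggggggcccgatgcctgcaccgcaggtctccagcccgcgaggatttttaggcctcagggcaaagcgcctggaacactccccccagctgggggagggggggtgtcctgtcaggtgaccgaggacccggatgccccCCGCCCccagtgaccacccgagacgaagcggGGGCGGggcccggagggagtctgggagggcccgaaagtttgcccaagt
DGKA: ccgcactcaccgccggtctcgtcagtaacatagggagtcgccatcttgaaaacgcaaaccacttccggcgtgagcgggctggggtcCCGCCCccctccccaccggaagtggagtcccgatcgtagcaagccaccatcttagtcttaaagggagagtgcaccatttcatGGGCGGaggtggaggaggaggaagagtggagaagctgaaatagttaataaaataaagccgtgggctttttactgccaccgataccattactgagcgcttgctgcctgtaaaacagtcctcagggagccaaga
DGKD: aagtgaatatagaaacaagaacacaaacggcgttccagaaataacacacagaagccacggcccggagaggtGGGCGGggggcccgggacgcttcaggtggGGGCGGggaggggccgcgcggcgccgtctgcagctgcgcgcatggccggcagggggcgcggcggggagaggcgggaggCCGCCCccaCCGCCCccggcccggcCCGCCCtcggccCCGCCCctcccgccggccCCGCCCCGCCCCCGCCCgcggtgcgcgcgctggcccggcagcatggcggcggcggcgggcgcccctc

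The PLCG1 window held 3 GC boxes and 81.0% G or C, and the PLCG1-AS1 window held 2 and 71.3%. DGKD held 9, some of them overlapping, at 79.0% G or C, and DGKA held 2 at 55.3%. A window at the outermost start was given for 34 of the 44 members with a reference match. At least 1 GC box was present in 27 of these 34 windows (79.4%), in 23 of 28 windows of unlisted pathway genes (82.1%), in 70.2% of windows of listed protein-coding genes and in 58.5% of all 13820 protein-coding windows. The CCAAT box (CCAAT or ATTGG on the other strand, neither of which lies within a GC box) was in 9 of 34 member windows (26.5%), in 8 of 28 windows of unlisted pathway genes (28.6%) and in 37.1% of all protein-coding windows. GGAC, the core of the m6A consensus, was sought on the transcript strand alone in the first 50 transcribed bases. It occurred in 2 of 34 members (5.88%), namely PIP4K2B from base 5 and IP6K2 from base 30. It occurred in 5 of 28 unlisted pathway genes (17.9%) and in 19.7% of all protein-coding windows. These matches describe letters in a short window and say nothing of where a peak lay.

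Lipid kinases. The 7 members cover successive steps of the pathway. PI4KA and PI4KB make phosphatidylinositol 4-phosphate, PI4KA for the plasma membrane and PI4KB at the Golgi apparatus. PIK3C2A and PIK3C2B are class II phosphoinositide 3-kinases. PIKFYVE acts on endosomal phosphatidylinositol 3-phosphate, and PIP4K2B and PIP4K2C phosphorylate phosphatidylinositol 5-phosphate. All 7 were entries of the GO term ATP binding and of phosphatidylinositol biosynthetic process. PIK3C2B, on chromosome 1 from 204422633 to 204494805, was the only one of the 7 in the RNA-binding family table. PIKFYVE, on chromosome 2 from 208266056 to 208358746, was also entered under the KEGG pathway Phagosome and the GO terms endosome membrane and retrograde transport, endosome to Golgi.

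The lipid kinase genes left out for their autophagy or endocytosis entry were PIK3CD, the catalytic subunit typical of leukocytes, the regulatory subunits PIK3R2 and PIK3R3, the class III kinase PIK3C3, and the phosphatidylinositol 4-phosphate 5-kinases PIP5K1A and PIP5K1C. PIK3CG, the catalytic subunit driven by G protein-coupled receptors, and its partner PIK3R5 were listed in other rows. PIK3CA, PIK3CB and PIK3R1 were not listed, nor were PI4K2A, PI4K2B, PIK3C2G, PIP4K2A, PIP5K1B and PIP5KL1. Expression of the unlisted genes in these cells was not measured here.

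Phosphatases. INPP5D and INPPL1, known as SHIP1 and SHIP2, remove the 5-phosphate from the product of class I phosphoinositide 3-kinase, and INPP5D acts mainly in blood cells. INPP5D lies on chromosome 2 from 233060342 to 233207903 and INPPL1 on chromosome 11 from 72223563 to 72239147. The 5-phosphatases OCRL, INPP5B, INPP5E, SYNJ1 and SYNJ2 were members, as was INPP4A, a 4-phosphatase, and SACM1L, which dephosphorylates phosphatidylinositol 4-phosphate in the endoplasmic reticulum. MTM1 and MTMR8 belong to the myotubularins, a family that dephosphorylates 3-phosphorylated lipids. MTMR3, MTMR4 and MTMR14 were left out for their autophagy entry, and MTMR1, MTMR2, MTMR6 and MTMR7 were not listed.

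All 11 phosphatases were also entries of the KEGG pathway Inositol phosphate metabolism, and 9 of them of phosphatidylinositol biosynthetic process. SYNJ1 and SYNJ2, the synaptojanins, were the only members entered under RNA binding (2 of 45, 4.44%, against 14.6% of all symbols of the GO or KEGG table). INPP5E, on chromosome 9 from 136428619 to 136439845, had no GO entry but was in the family table, as were MTMR8 and SYNJ1. OCRL had 11 GO entries, the most of this class, among them Rac GTPase binding and positive regulation of GTPase activity. INPP4B, INPP5F, INPP5J, INPP5K, FIG4, PIP4P1 and PIP4P2 were not listed.

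Phospholipase C. The members divide by subfamily. All 3 delta genes (PLCD1, PLCD3 and PLCD4) and both gamma genes were listed. Of the 4 beta genes, the subfamily that responds to G protein-coupled receptors, PLCB2 and PLCB3 were listed, and PLCB1 and PLCB4 were not. PLCE1, PLCH1, PLCH2 and PLCZ1 were not listed. PLCG2, on chromosome 16 from 81739041 to 81962685, is the gamma enzyme of myeloid and B cells and was entered under 6 other KEGG pathways, more than any other member. PLCG1, PLCG2, INPP5D and INPPL1 were entered under Fc gamma R-mediated phagocytosis, together with PLCG1-AS1 through its shared identifier (5 of 45, 11.1%, against 0.908% of all symbols). PLCG1, PLCG1-AS1, PLCG2 and INPP5D were likewise those of the GO term T cell receptor signaling pathway (4 of 45, 8.89%, against 1.57% of all symbols); that is 3 identifiers.

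Genomic length is shown gene by gene for phospholipase C, the class chosen after its values were seen because listed and unlisted genes lay far apart. PLCB3 spans 17.9 kb, PLCD1 22.1 kb, PLCD3 23.6 kb, PLCB2 23.7 kb, PLCD4 29.3 kb and PLCG1 40.1 kb, with PLCG2 apart at 224 kb. The unlisted PLCH2 spans 89.6 kb, PLCZ1 92.4 kb, PLCH1 294 kb, PLCE1 339 kb, PLCB4 412 kb and PLCB1 753 kb. All listed genes of the class but PLCG2 were thus shorter than each unlisted one. Over all protein-coding genes the order was the opposite, with a median genomic length, introns included, of 35.4 kb for listed genes and 20.1 kb for those not listed. The members' median was 59.5 kb (44 genes, from 11.2 kb for INPP5E to 498 kb for ITPR2), and that of the 50 unlisted pathway genes was 71.5 kb. The direction differed between classes. Members had the shorter median in the diacylglycerol kinases (82.6 kb for members and 286 kb for unlisted genes) and the lipid kinases (72.2 kb and 92.0 kb, in the same order). Members had the longer median in the phosphatases (99.6 kb for members and 81.7 kb for unlisted genes), the inositol phosphate enzymes (77.4 kb and 38.2 kb) and the other pathway genes (46.0 kb and 11.8 kb). None of these differences was tested.

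**Figure D2:**
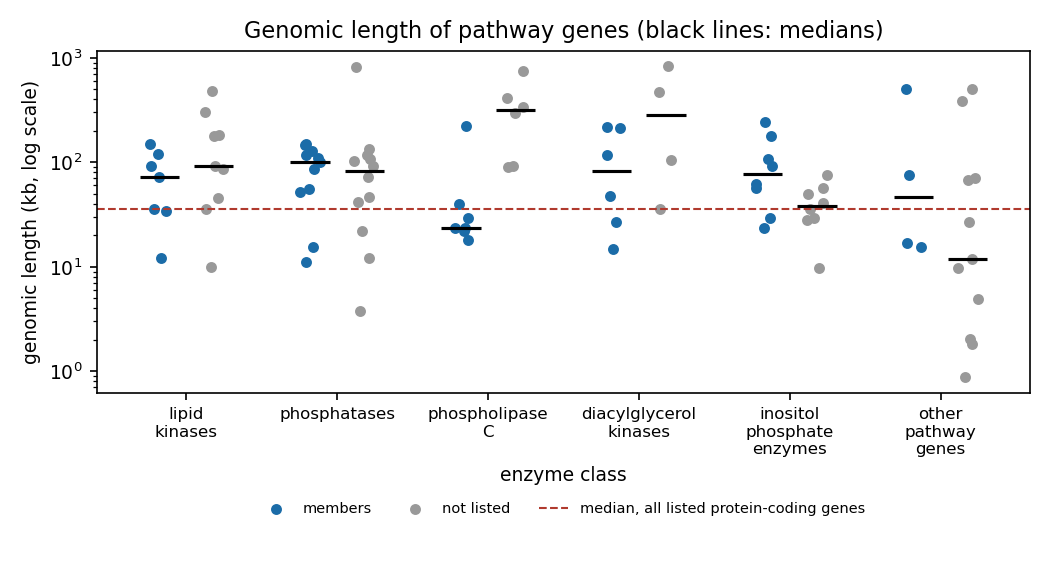
Genomic length in kb on a log axis (vertical) by enzyme class (horizontal) for members, on the left of each class, and for unlisted genes of the pathway list, on the right; points are genes and black lines are medians. The phospholipase C members lie below the unlisted genes except PLCG2 at 224 kb, and the dashed line marks the median of all listed protein-coding genes, 35.4 kb.

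Diacylglycerol kinases. DGKA, DGKD, DGKG, DGKH, DGKQ and DGKZ were listed, and DGKB, DGKE, DGKI and DGKK were not. The members span several structural types of the family: DGKA and DGKG have calcium-binding EF hands, DGKD and DGKH are the delta and eta enzymes with a pleckstrin homology domain, DGKZ has ankyrin repeats and DGKQ is the theta enzyme. DGKA lies on chromosome 12 from 55927316 to 55954023, DGKD on chromosome 2 from 233354494 to 233472098 and DGKZ on chromosome 11 from 46332926 to 46380554. DGKD lies 147 kb beyond INPP5D, with the protein-coding genes ATG16L1 and SAG between them. All 6 were entries of ATP binding. DGKQ and DGKZ were entries of nuclear speck, together with INPPL1 and ITPKC (4 of 45, 8.89%, against 4.61% of all symbols). None of the 6 was entered under another KEGG pathway.

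This class stood highest in the RNA-binding family table, a separate deposited list of gene symbols paired with families of RNA-binding proteins. DGKA, DGKD, DGKH, DGKQ and DGKZ were in it, and DGKG was not (5 of 6, 83.3%, 95% interval 35.9 to 99.6%). Of all 45 members 14 were in it (31.1%, 95% interval 18.2 to 46.6%), against 19.8% of the 5614 symbols of the GO or KEGG table. Phosphatases were in it in 3 of 11 cases (27.3%), phospholipase C entries in 2 of 8 (25%), inositol phosphate enzymes in 2 of 8 (25%) and lipid kinases in 1 of 7 (14.3%). Without the diacylglycerol kinases the share of the members was 23.1%, close to the background. The class was singled out after its values were seen, no test was made, and 6 genes of a family are not independent draws. DGKG, the gene not in the table, spans 215 kb, and those in it span 14.7 kb (DGKQ) to 217 kb (DGKH); the part of gene length in this share was not tested.

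**Figure D3:**
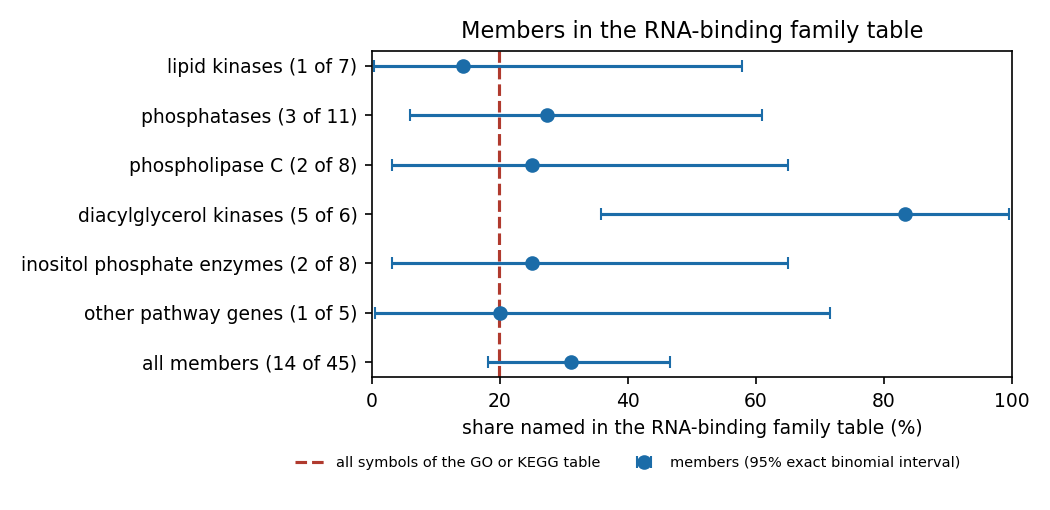
Share of member symbols named in the RNA-binding family table in percent (horizontal axis) by enzyme class (vertical axis), with exact binomial 95% intervals; the dashed line is the 19.8% of all symbols of the GO or KEGG table. Diacylglycerol kinases stand at 83.3%, the lower end of the interval at 35.9%. The intervals of the other classes and of all members include the line. The diacylglycerol kinases were singled out after their values were seen, they are not independent draws, and no test was made.

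The pairings of the 14 members fell into 4 patterns. DGKA, DGKD, DGKZ, ITPKB, ITPR3 and PIK3C2B were paired with all 4 families, named CCHC ZF,RRM, CSD, PUF and RRM (6 of 45 members, 13.3%, against 12.6% of the symbols of the GO or KEGG table). Within the family table, 62.2% of the 1348 symbols had all 4. DGKH, MTMR8, PLCD1, PLCG1, PPIP5K2 and SYNJ1 were paired with CSD, PUF and RRM. DGKQ lacked PUF alone, and INPP5E was paired with CSD and RRM. All 14 were paired with CSD and RRM, as were nearly all symbols of that table (99.6% with CSD, 100% with RRM). The family CCHC ZF,RRM was paired with 7 of the 14 (50%), against 66.2% of the symbols of the table. Since RRM was paired with each symbol of the table, a pairing cannot be read as a domain of the encoded protein. Synaptojanins do carry an RNA recognition motif, yet SYNJ1 was in the table and SYNJ2 was not.

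**Figure D4:**
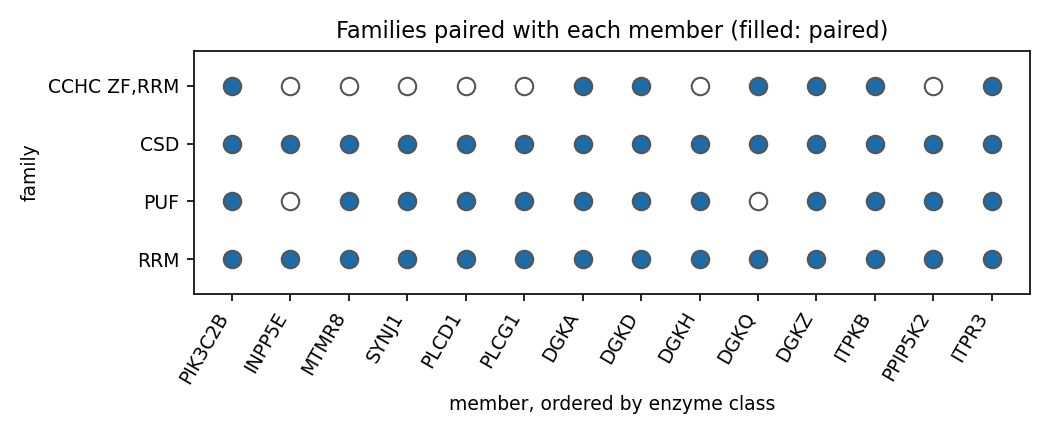
The 14 members in the RNA-binding family table (horizontal axis, ordered by enzyme class) against the 4 families (vertical axis); a filled circle is a pairing and an open circle none. CSD and RRM are filled for all 14, PUF for 12 and CCHC ZF,RRM for 7.

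Inositol phosphate enzymes. ITPKB and ITPKC phosphorylate the calcium-releasing inositol trisphosphate, INPP5A removes its 5-phosphate, and ITPK1 acts on inositol phosphates with more than one position phosphorylated. IP6K1, IP6K2, PPIP5K1 and PPIP5K2 make the inositol pyrophosphates, the most densely phosphorylated members of the group. The 7 kinases of the class were entries of the GO term ATP binding, and membrane was the only GO term of INPP5A. IP6K1 and IP6K2, both on chromosome 3, were the members entered under fibrillar center, a part of the nucleolus (2 of 45, 4.44%, against 1.44% of all symbols). ITPKB (chromosome 1 from 226631690 to 226739282) and PPIP5K2 (chromosome 5 from 103120301 to 103212799) were in the family table. MINPP1 was listed in other rows, and BPNT2, IMPA1, IMPA2, INPP1, IP6K3, IPMK, IPPK and ITPKA were not listed. INPP1, IMPA1 and IMPA2 return free inositol to the lipid cycle.

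Other pathway genes. ITPR2 and ITPR3 encode calcium channels of the endoplasmic reticulum opened by inositol trisphosphate, and the third of them, ITPR1, was left out for its autophagy entry. All 3 channel genes were therefore entered in the pathway. ITPR3 (chromosome 6 from 33621322 to 33696562) was paired with all 4 families and ITPR2 with none. CALML4 encodes a calmodulin-like protein. The protein kinase C genes PRKCA and PRKCB, whose products diacylglycerol activates, were not listed. CDS1, CDS2 and CDIPT, which rebuild phosphatidylinositol, were not listed either.

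Across the classes the members were mostly cytosolic by annotation. Cytosol had 36 of the 45 members (80%), against 43.9% of all symbols of the GO or KEGG table, cytoplasm 22 (48.9%, against 35.3%), membrane 16 (35.6%, against 19.5%) and ATP binding 20 (44.4%, against 14.6%). Phosphatidylinositol biosynthetic process, a term that follows from what these enzymes do, held 17 (37.8%, against 0.855%); in the authors' deposited table it had 48 entries on 76 background genes and a corrected p-value of 0.558. Nucleus had 11 members (24.4%, against 41.3%) and nucleoplasm 9 (20%, against 34.5%). Viral process had 4 (8.89%, against 5.18%), namely CALM2, PI4KB, PLCG1 and PLCG1-AS1. In utero embryonic development held INPP5B, OCRL, PLCG1 and PLCG1-AS1 (8.89%, against 1.82%). Perinuclear region of cytoplasm held PI4KB, PIKFYVE, SYNJ1 and SYNJ2 (8.89%, against 6.39%). INPP5E, CALML4 and RP11-315D16.2 had no GO entry. The shares describe annotation and were not tested.

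**Figure D5:**
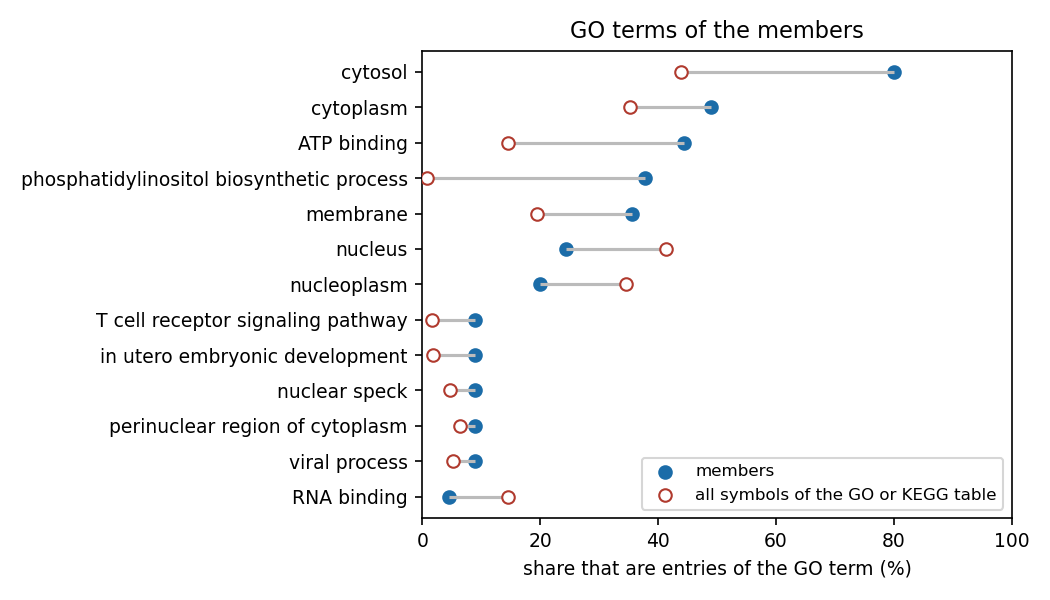
Share of the 45 members (filled) and of all 5614 symbols of the GO or KEGG table (open) that are entries of a GO term, in percent (horizontal axis), for each term with at least 4 members and for RNA binding (vertical axis). Members lie above all symbols for cytosol (80%, against 43.9%) and below for nucleus (24.4%, against 41.3%) and RNA binding (4.44%, against 14.6%).

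Among the KEGG pathways, Inositol phosphate metabolism held 30 of the 45 members (66.7%, against 0.766% of all symbols), with a corrected p-value of 0.268 in the authors' deposited table. That pathway shares most of its enzymes with phosphatidylinositol signaling, and no diacylglycerol kinase or inositol pyrophosphate kinase among the members was entered there. Thyroid hormone signaling pathway held the 8 phospholipase C entries (17.8%, against 1.12%). Glucagon signaling pathway held CALM2, CALML4, ITPR2, ITPR3, PLCB2, PLCB3 and RP11-315D16.2 (15.6%, against 0.98%). C-type lectin receptor signaling pathway held PLCG2, ITPR2, ITPR3, CALM2, CALML4 and RP11-315D16.2 (13.3%, against 0.98%). These shares follow from pathways that KEGG builds on the same enzymes. In all, 35 members had another KEGG entry and 10 had none.

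Of the 43 protein-coding members 10 overlap another protein-coding gene (23.3%), near the 25.2% of all listed protein-coding genes. For 4 of these the partner was listed as well, namely PI4KB with ZNF687, PLCD3 with NMT1, PLCD4 with ZNF142 and CALML4 with PIAS1. For these members the tables cannot tell which gene of the pair carried the signal. Counting annotated genes of any type, 27 of the 43 overlap another gene (62.8%), and the same limit holds for them. That share over all listed genes was not computed. Hairpins of MIR6871, MIR4688 and MIR6784 lie inside PLCG1, DGKZ and PLCD3, in that order.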

How the data were processed

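RNA from an ALKBH5 immunoprecipitate and an input of HL-60 cells was sequenced in paired reads from stranded libraries, per the labels' protocols. Per the submitters' processing notes the build was hg38; no source used here names the aligner, peak caller or enrichment tool. The authors deposited, per the file headers, counts of input entries and background genes per term, a rich factor (a ratio) and p-values, with no level per library, so depth is unknown. Members were grouped by hand into enzyme classes. The members and lists were chosen with earlier results of these data known. Symbols were matched to RefSeq (GRCh38.p14) by current and older symbols. All members were named. Sequences were planned for at most 2 members per class, those in the family table first and in alphabetical order. They are shown for phospholipase C and the diacylglycerol kinases only. PLCG1 was taken in place of PLCD1, which that order puts first, and PLCG1-AS1 was added. Shares have exact Clopper-Pearson 95% intervals (SciPy 1.17.1, Python 3.11.15, pandas 2.3.3), which cover counting error only. No test was made. Parsing and the choice of members were tested on simulated data. Alternatives were identifiers for symbols, entries kept, single tables, current symbols and all families. Protein lengths and motifs, planned at first, were not analysed here; promoter windows took their place. Some genes of the pathway list are not reported here by name.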

Additional observations from a re-analysis of the deposited data

How the results depend on the processing

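Of 35 alternative values, 34 stayed within 1.5 times of a count, within the 95% interval of a share or within the spread of the lengths. The class shares from the GO or KEGG table alone, by current symbols or by gene identifier equalled the main value in every class. The count of 34 therefore says little about how stable the results are. The share of members in the RNA-binding family table was 13.3% when all 4 families were required, against 31.1% with any family. Fewer symbols meet the narrower rule: over all symbols of the GO or KEGG table the share was 12.6%, against 19.8% with any family. The members thus stood near the background when all 4 families were required. With the autophagy and endocytosis entries kept, the members' share with any family was 31.6%. These alternatives were chosen after seeing the data: listing by gene identifier, the family share by distinct identifier (32.6%) and the family share without diacylglycerol kinases (23.1%). The number of members was 43 by distinct identifier and 57 with the entries kept. In the KEGG pathway alone, lipid kinases were listed in 54.2% of cases and inositol phosphate enzymes in 47.1%. No paired analysis was possible because the tables hold no value per library. Depth cannot be judged, and with 1 library per group an unlisted gene cannot be called unbound.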
